A study of Mus musculus with 8 samples.

Results

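Kit and Ly6a encode the surface proteins Kit and Sca1, by which mouse blood stem and progenitor cells are sorted. The gate is called LSK, for cells without lineage markers and with both Sca1 and Kit. The open chromatin around both genes is described here in sorted MPP2 cells, multipotent marrow progenitors that lean toward megakaryocytes and red cells. All peaks overlapping chr5:75850000-76060000 (the Kit window, mm9) or chr15:74815000-74840000 (the Ly6a window, mm9) were taken, whatever their signal. The windows themselves were chosen with earlier results of these data known. They held 29 peaks at Kit and 6 at Ly6a, 35 of the 134473 peaks in the table. Chromatin was profiled by bulk ATAC-seq, in which a transposase cuts accessible DNA, in its Omni-ATAC form. The 2 groups were Vwf+Gata1+ and Vwf-Gata1+ cells of C57BL/6 mice aged 8 to 12 weeks, with 4 libraries of 500 cells each. Cells of both groups were gated as LSK, negative for Flt3 and positive for CD150 and CD48, and both were positive for Gata1. The groups therefore differ by label only in Vwf, which encodes von Willebrand factor, and the gate selected on the products of both Kit and Ly6a in all libraries. How Vwf and Gata1 were read in the sort, and whether libraries came from separate animals, was not given in the sources used here. The p-values thus measure only the spread between these libraries, which may be technical. That spread was not taken from each peak alone, as the fit also drew on all tested peaks.

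Kit is the receptor tyrosine kinase for stem cell factor, and it is needed for the upkeep of blood stem cells and for early red cell progenitors, mast cells and melanocytes. Its distal upstream enhancer is bound by GATA2 in progenitors and by GATA1 as red cells mature, an exchange that accompanies the silencing of Kit. Ly6a is a small protein of the Ly6 family held in the membrane by a lipid anchor. It is induced by interferon, marks stem cells and many multipotent progenitors, and is lost as myeloid and red cell progenitors are formed. Sequence downstream of Ly6a holds a known nuclease-hypersensitive region that is part of the constructs by which the gene is expressed in stem cells.

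The strongest peak of either window lay over the Kit start. Promoter letters are shown for Kit alone, as the RefSeq promoters used here had no entry for Ly6a. The 250 bases before the first RefSeq start of Kit (GRCm38.p6, chr5:75574737-75574986, plus strand) have the motif matches in capitals.

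Kit promoter: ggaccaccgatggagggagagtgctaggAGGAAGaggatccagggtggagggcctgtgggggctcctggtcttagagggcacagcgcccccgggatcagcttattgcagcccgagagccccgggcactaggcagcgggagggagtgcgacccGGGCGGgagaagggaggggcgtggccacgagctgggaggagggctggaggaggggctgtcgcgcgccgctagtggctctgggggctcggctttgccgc

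The stretch is rich in G and C (70.8%), against a median of 52.4% over 32851 RefSeq promoters cut to the same 250 bases, of which 8.3% were at or above Kit. It holds 1 match to the ETS core AGGAAG, from 222 to 217 bases before the start, and 1 to the SP1 box GGGCGG, from 98 to 93 bases before it. The ETS letters are found in 29.5% of those promoters and the SP1 letters in 32.7%. The GATA letters AGATAA (in 9.99% of promoters), the E-box CANNTG (66.2%) and the RUNX letters TGTGGT (14.0%) had no match here on either strand. The matches do not overlap each other. These letters come from another build than the peaks, and the promoter is linked to its peak by the gene start alone. The mm9 peak begins 510 bases before the approximate gene start and ends 1355 bases after it.

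Signal is given as CPM, counts scaled to library size with TMM factors, and levels of peaks of different width are compared as CPM per kb of peak. Distances run from the approximate gene start to the middle of a peak. Total counts were 4628997 to 7753538 per library. Peaks were not assigned to exons, introns or UTRs, and for Kit and Ly6a the approximate mm9 gene ends were used.

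Over the Kit start, the peak at chr5:75970390-75972255 (1866 bp) had the highest signal of all 35. It had 69.0, 81.3, 73.3 and 79.1 CPM in replicates 1 to 4 of Vwf+Gata1+ cells. In Vwf-Gata1+ cells it had 66.1, 68.0, 78.2 and 74.7 CPM. The groups overlap over most of their range, and both replicate 1 libraries are the lowest of their group. At 39.5 CPM per kb it stood above 97.4% of all peaks in the table. This 1 peak carried 40.4% ± 3.57 (SD, n = 8) of the summed signal of the Kit window.

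The upstream enhancer of Kit, which is known to lie far before the gene, corresponded by distance to the peak at chr5:75856029-75856988, 114.4 kb upstream. Its signal was 17.6, 22.5, 13.8 and 19.6 CPM in Vwf+Gata1+ replicates 1 to 4. In Vwf-Gata1+ cells it was 24.3, 23.7, 26.9 and 14.9 CPM. Replicates 1 to 3 of Vwf-Gata1+ cells lay above all 4 Vwf+Gata1+ libraries, while replicate 4 lay below 3 of those 4. Per kb it ranked second in the Kit window, at 21.3 ± 4.91 CPM per kb over the 8 libraries (SD), and it stood above 88.5% of all peaks. The Kit start peak was higher per kb than this enhancer peak in 8 of 8 libraries, by 1.40 to 2.74 times.

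A further 6 peaks followed the enhancer peak within a stretch of 20.5 kb, which ended 94.5 kb upstream. All 7 together summed to 39.2 ± 3.74 CPM in the Vwf+Gata1+ group and to 43.1 ± 6.82 CPM in the other (SD, n = 4 each). The next 7 peaks, between this stretch and the gene, were weak, with 9.45 ± 1.75 CPM and 11.4 ± 1.79 CPM in sum. The widest gap without a listed peak in the window, 23.3 kb, lay just after the far upstream group.

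Within the gene lay 11 peaks past the start. The highest per kb was the narrow peak 5.0 kb inside the gene (chr5:75975745-75976058, 314 bp), at 18.6 ± 3.88 CPM per kb over 8 libraries (SD). GATA factors are known to occupy sites in the body of Kit as well as the upstream enhancer. After it came the peaks at 7.3 kb, with 13.0 ± 3.05 CPM per kb, and at 58.6 kb, with 12.6 ± 2.24 CPM per kb. No peak was listed over the last 20.9 kb of the gene. Just past its end lay 3 weak peaks, from 82.7 to 84.0 kb after the start. In RefSeq order, the protein-coding neighbour of Kit on the upstream side is Pdgfra, the receptor for platelet-derived growth factor. Past the gene end it is Kdr, a receptor for vascular endothelial growth factor.

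**Figure D1:**
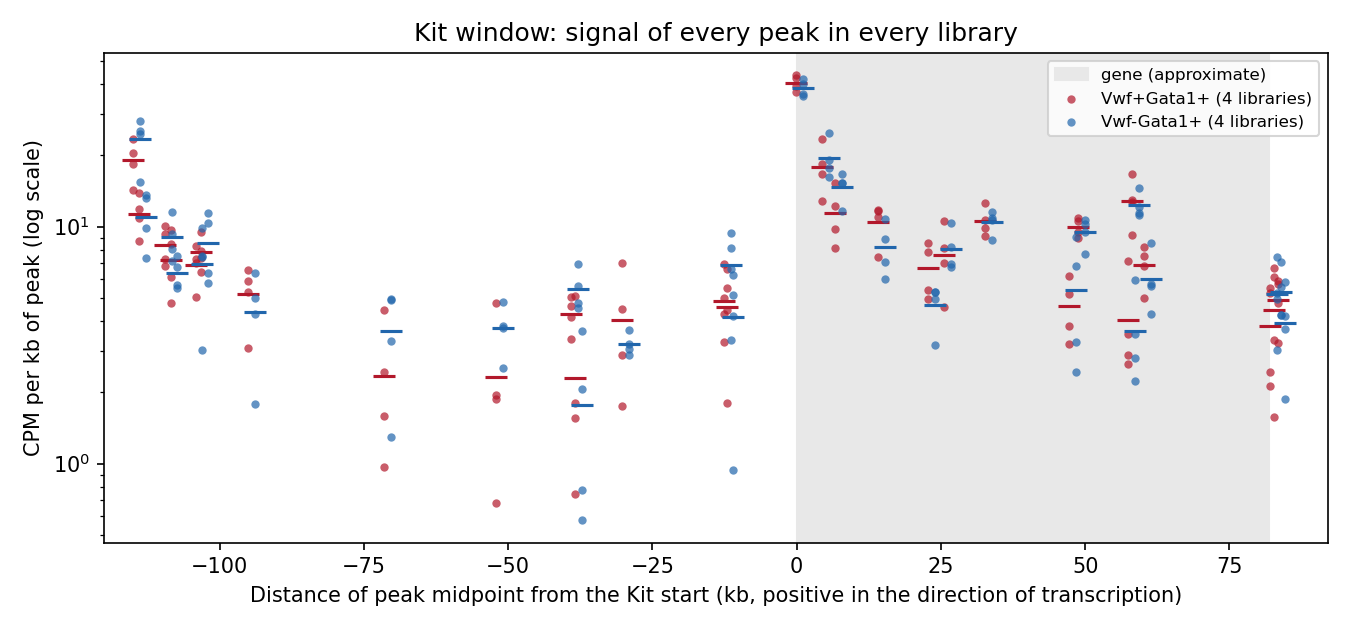
Signal of all 29 peaks of the Kit window as CPM per kb of peak (log scale), by distance of the peak middle from the approximate gene start in kb. Each point is 1 library, the short bars are group means, the 2 groups are set slightly apart, and grey marks the gene. The start peak stands highest at 39.5 CPM per kb, the peak 114.4 kb upstream comes next at 21.3, and points of both groups mix at every peak.

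In order of CPM per kb, few neighbours in the Kit window could be told apart. Of 28 neighbouring pairs, 2 kept 1 order in all 8 libraries. The start peak was always above the enhancer peak, and the peak at 5.0 kb was always above that at 7.3 kb. The enhancer peak was above the peak at 5.0 kb in 5 of 8 libraries, so the order of these 2 was not settled. The lowest level, 2.04 ± 1.59 CPM per kb (SD, n = 8), belonged to the peak 37.9 kb upstream, with 1 to 9 counts per library.

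The Ly6a window was arranged the other way round, with its strongest peak far from the gene start. Ly6a was taken to lie on the minus strand, which is textbook knowledge and was not read from the files, so positions below the gene are called downstream. The peak at chr15:74818722-74820253 (1532 bp), 9.0 kb after the start and 5.05 kb past the end of the gene, had 38.3, 36.4, 37.1 and 39.1 CPM in Vwf+Gata1+ replicates 1 to 4. In Vwf-Gata1+ cells it had 38.2, 40.3, 34.1 and 39.8 CPM. Every Vwf+Gata1+ value lies inside the range of the Vwf-Gata1+ values. At 24.8 CPM per kb it stood above 91.3% of all peaks, and it carried 72.9% ± 1.83 of the window's signal (SD, n = 8). The protein-coding neighbour of Ly6a on that side is Ly6i, another member of the Ly6 family, and on the other side Ly6c1. Positions of these neighbours were not used here.

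At the Ly6a start itself the peak was small. The peak at chr15:74828200-74828504 (305 bp) had 1.98, 1.88, 2.75 and 2.44 CPM in Vwf+Gata1+ replicates 1 to 4. It had 3.14, 2.46, 3.71 and 3.65 CPM in Vwf-Gata1+ cells. Of the 4 Vwf-Gata1+ libraries, 3 lay above every Vwf+Gata1+ library, and replicate 2 lay below 1 of them. These values rest on 10 to 25 counts per library.

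Per kb, the downstream Ly6a peak was 1.83 to 3.86 times as high as the Ly6a start peak, above it in 8 of 8 libraries. The Kit start peak was 3.35 to 7.08 times as high per kb as the Ly6a start peak, again in 8 of 8. The peaks that overlap 1 kb either side of the Ly6a start together carried 8.87% ± 1.12 of the window's signal (SD, n = 8). The start peak of Kit carried 40.4% of the signal of its own window. The windows span 210 kb at Kit and 25 kb at Ly6a, so these shares are of unlike totals and depend on the window edges. Why these levels differ was not tested. As these libraries come from pools of 500 cells, fewer cells with an open site and less opening per cell cannot be told apart.

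The remaining Ly6a peaks were weaker than the downstream one. The peak at chr15:74824661-74825217, just past the gene end at 3.6 kb, averaged 7.32 ± 1.13 CPM in Vwf+Gata1+ libraries and 6.43 ± 0.715 CPM in the other group (SD, n = 4 each). The peak 1.0 kb upstream of the start (chr15:74829413-74829666) had 1.95 ± 0.335 and 1.78 ± 0.619 CPM. At 1.9 kb upstream (chr15:74830297-74830510) the values were 1.45 ± 0.655 and 2.10 ± 1.35 CPM, and replicate 3 was the highest library in both groups. The peak 6.0 kb upstream (chr15:74834443-74834654) had 0.765 ± 0.503 and 0.791 ± 0.510 CPM, from 1 to 10 counts per library. By CPM per kb, the downstream peak was above the next in all 8 libraries and the lowest, 6.0 kb upstream, was below the next in all 8. The 3 orders in between were not kept in all libraries.

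**Figure D2:**
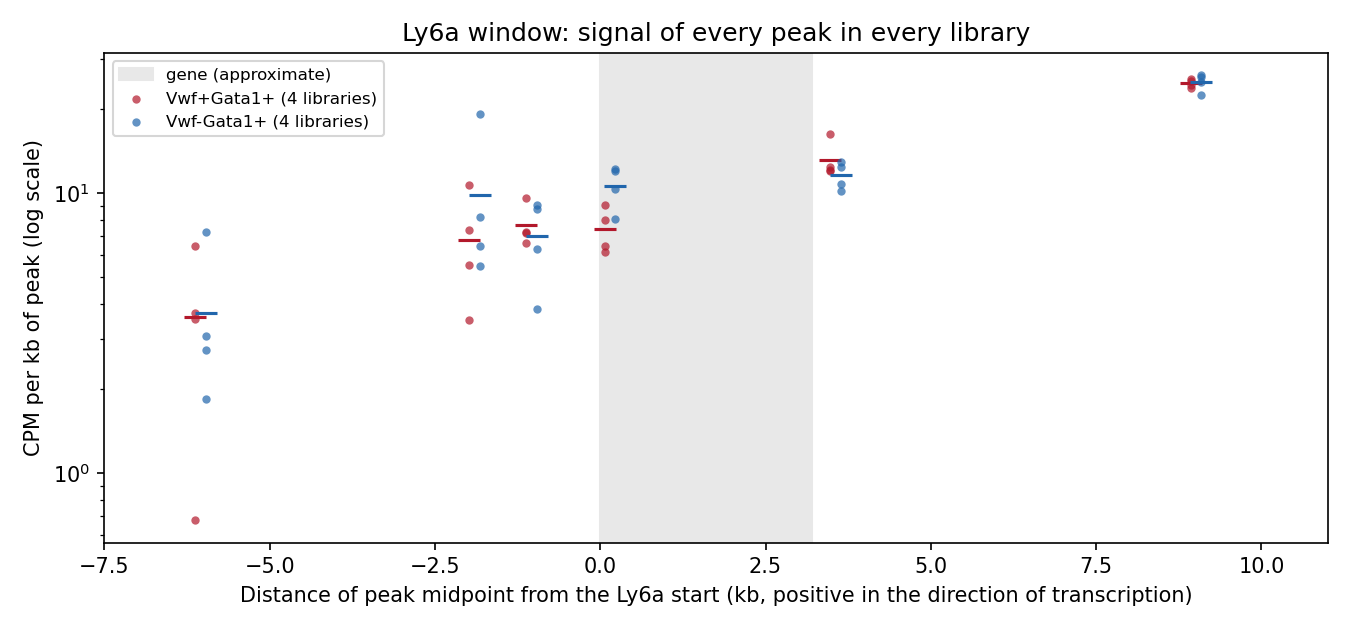
Signal of all 6 peaks of the Ly6a window as CPM per kb of peak (log scale), by distance in kb from the approximate gene start in the direction of transcription. Points are libraries, short bars are group means, groups are set slightly apart, and grey marks the gene. The peak 9.0 kb after the start is the highest at 24.8 CPM per kb and the start peak has 9.02.

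Both windows held more peaks than most of the genome. With each chromosome cut into tiles of the window's size, 10.5% of 12588 tiles of 210 kb held 29 peaks or more, and the median tile held 6. Of 105648 tiles of 25 kb, 4.09% held 6 peaks or more, and the median tile held 0. By summed CPM, 16.3% of the 210 kb tiles and 5.82% of the 25 kb tiles had as much signal or more. The tiles include stretches without any peak, whereas the windows were placed on chosen genes. Median peak width was 384 bp in the Kit window and 279.5 bp in the Ly6a window, against 393 bp over all peaks. By strength, 2 of the 35 reached the top 10% of all peaks by CPM per kb, namely the Kit start and the Ly6a downstream peak.

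The comparison between the groups asks whether chromatin at the gate genes differs between Vwf+Gata1+ and Vwf-Gata1+ cells. No difference passed the test at any peak of either gene. Of the 35 peaks, 27 had enough counts to be tested with edgeR, 22 at Kit and 5 at Ly6a. At an adjusted p under 0.05, 0 of 22 and 0 of 5 were called, where 0.0144% of all 97040 tested peaks were called. At an unadjusted p under 0.05 the counts were also 0 and 0, against 6.72% of all tested peaks. DESeq2 and limma-voom called 0 as well, with 0 at an unadjusted p under 0.05. Other fits also called 0, but 1 Kit peak had an unadjusted p under 0.05 with loess offsets, with no filter and with the replicate block. Without 1 library, 1 or 2 Kit peaks did so in 6 of 8 fits and 1 Ly6a peak in 2 of 8. The groups overlapped in CPM at all 27, while 3.88% of the tested peaks in the whole table had separate groups. At a background this low, a count of 0 among 27 is near what the table as a whole shows.

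Directions were mixed. Of the Kit peaks tested, 12 had a log2 fold change (Vwf+Gata1+ over Vwf-Gata1+) below 0 and 10 above. The median was -0.04, and values ran from -0.55 to 0.54. At Ly6a 3 were below 0 and 2 above, with a median of -0.01. Over all tested peaks 49.3% were below 0 and the median was 0.00389.

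The 2 strongest peaks gave the narrowest limits on a difference. At the Kit start the log2 fold change was 0.08 ± 0.09 (SE; edgeR adjusted p = 0.921), with a 95% interval from 0.937 to 1.19 times. At the Ly6a downstream peak it was -0.01 ± 0.09 (edgeR adjusted p = 0.991), with an interval from 0.870 to 1.13 times. A 1.5-fold difference in either direction lies outside both intervals. No adjustment for the number of peaks was made in these intervals.

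At the Kit enhancer peak the signal in Vwf-Gata1+ cells was 1.21 times that in Vwf+Gata1+ cells, with a 95% interval from 0.976 to 1.49 (log2 fold change -0.27 ± 0.15, SE; edgeR unadjusted p = 0.0802, adjusted 0.784). Group means were 18.4 ± 3.67 and 22.4 ± 5.23 CPM (SD, n = 4 each), so the gap is smaller than the SD of the second group. Single libraries moved this value. Without replicate 4 of Vwf-Gata1+ cells the log2 fold change was -0.43 and the unadjusted p was 0.00289, but the adjusted p stayed at 0.49. Without replicate 3 of Vwf+Gata1+ cells it was -0.17 (adjusted p = 0.924), and without replicate 3 of Vwf-Gata1+ cells -0.18 (adjusted p = 0.852).

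The lowest unadjusted p in the Kit window came from a peak in the gene body, 23.3 kb after the start (chr5:75993961-75994513). It had 4.74, 4.32, 2.98 and 2.73 CPM in Vwf+Gata1+ replicates 1 to 4. In Vwf-Gata1+ cells it had 2.74, 2.92, 2.93 and 1.75 CPM. Replicates 1 and 2 of Vwf+Gata1+ cells stood apart above the rest, and the groups met at the other values. The log2 fold change was 0.54 ± 0.27 (SE; edgeR unadjusted p = 0.0553, adjusted 0.753), from 12 to 36 counts per library. The peak 38.6 kb upstream (chr5:75931860-75932764) had 3.88 ± 0.663 CPM against 4.96 ± 0.999 CPM (SD, n = 4 each). Its log2 fold change was -0.38 ± 0.23 (SE; edgeR adjusted p = 0.813), and -0.24 without replicate 2 of Vwf-Gata1+ cells (adjusted p = 0.962). For the peak at 5.0 kb it was -0.13 ± 0.21 (edgeR adjusted p = 0.956).

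The Ly6a start peak had the lowest unadjusted p of its window. Its signal in Vwf-Gata1+ cells was 1.44 times that in Vwf+Gata1+ cells, with a 95% interval from 0.973 to 2.12 (log2 fold change -0.52 ± 0.28, SE; edgeR unadjusted p = 0.0675, adjusted 0.769). This interval includes a 2-fold difference in that direction only. At 1.9 kb upstream the log2 fold change was -0.49 ± 0.40 (SE; edgeR adjusted p = 0.876), and without replicate 3 of Vwf-Gata1+ cells, which held 21 counts, it was -0.02 (adjusted p = 0.997). For the peaks 3.6 kb after the start and 1.0 kb upstream of it the values were 0.17 ± 0.19 and 0.11 ± 0.33 (edgeR adjusted p = 0.918 and 0.981). Without replicate 2 of Vwf+Gata1+ cells the value at 3.6 kb was 0.07 (adjusted p = 0.99).

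**Figure D3:**
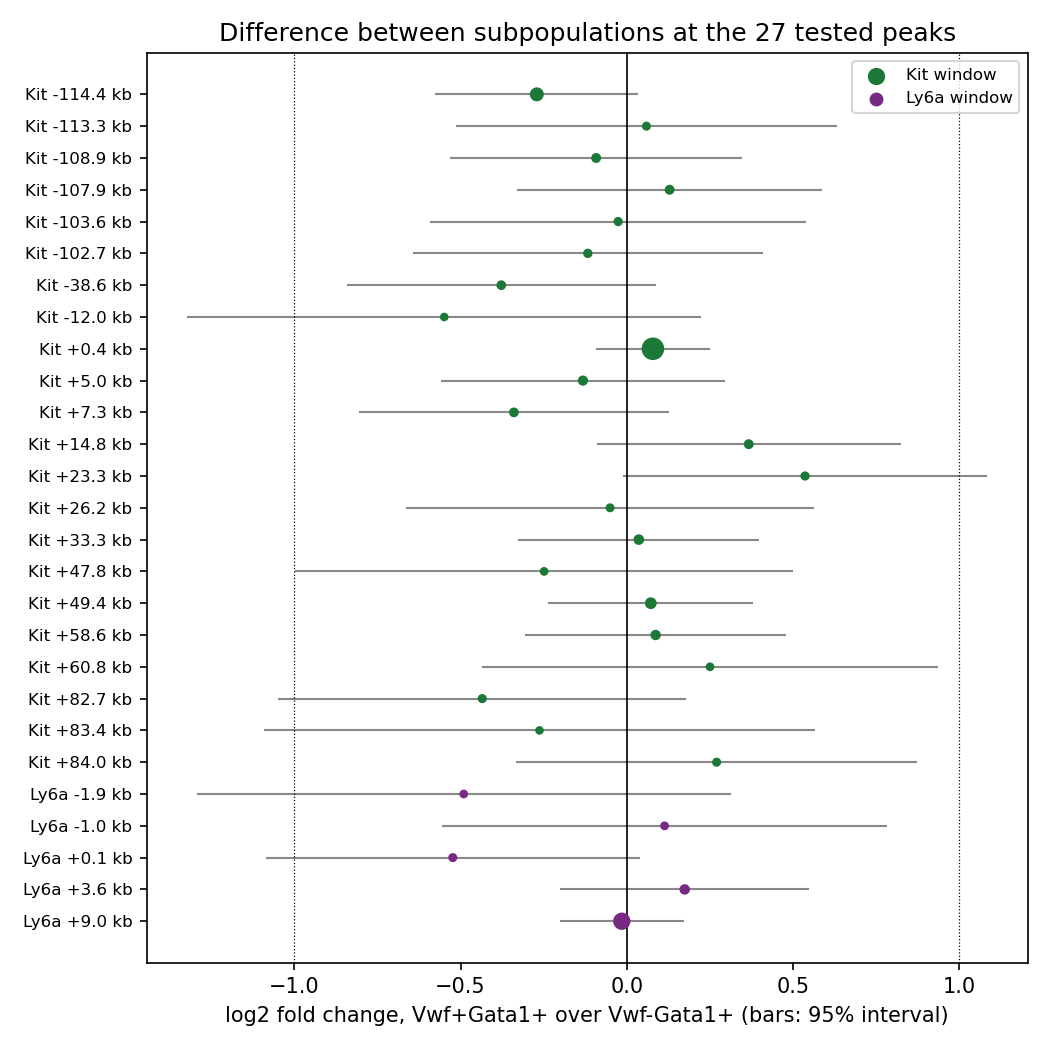
Log2 fold change of Vwf+Gata1+ over Vwf-Gata1+ cells at the 27 tested peaks, in order of distance from each gene start, with 95% intervals as bars, larger points for higher mean CPM and dotted lines at 2-fold. Every interval crosses 0, and the narrowest belong to the Kit start (0.08) and the Ly6a peak at 9.0 kb (-0.01).

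For 21 of the 27 tested peaks the 95% interval lay within 2-fold in either direction, 18 of 22 at Kit and 3 of 5 at Ly6a, against 85.6% of all tested peaks. At each of the other 6 the interval passed 2-fold on 1 side only, toward lower signal in Vwf+Gata1+ cells at 5 and toward higher signal at the Kit peak 23.3 kb after the start. The 8 peaks with too few counts were not tested in the main fit. They had between 1 and 17 counts per library. All 8 entered the fit with no filter, in mixed directions. There the Kit peak 51.5 kb upstream, with 2 to 12 counts per library, had a log2 fold change of -0.83 (edgeR unadjusted p = 0.0729, adjusted 0.815). Without replicate 3 of Vwf+Gata1+ cells its value was -1.35 (edgeR unadjusted p = 0.0146, adjusted 0.714).

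Summed over each window, signal was nearly level between the groups. The Kit window had 185.8, 195.3, 171.2 and 178.0 CPM in Vwf+Gata1+ replicates 1 to 4. In Vwf-Gata1+ cells it had 187.1, 185.4, 192.9 and 168.6 CPM. Means were 182.6 ± 10.4 and 183.5 ± 10.5 CPM (SD, n = 4 each), and the libraries of both groups spread over the same range. Sums over the Ly6a window were 51.5 ± 1.004 CPM in the Vwf+Gata1+ group and 52.4 ± 2.82 CPM in the other. No test was made on these sums.

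By share of the signal in the Kit window, group means differed by less than the larger SD in each part of the locus. The start peak held 41.5% ± 3.13 of it in the Vwf+Gata1+ group and 39.2% ± 4.06 in the other (SD, n = 4 each). The gene body held 28.2% ± 2.17 and 27.2% ± 1.17, and the upstream peaks 26.7% ± 0.429 and 29.6% ± 2.96. By library the upstream share was 26.6%, 26.1%, 27.2% and 26.7% in Vwf+Gata1+ replicates 1 to 4. In Vwf-Gata1+ replicates 1 to 4 it was 31.5%, 32.3%, 28.7% and 25.8%, so only replicate 4 lay below the Vwf+Gata1+ values. No test was made on these shares. The 3 peaks past the gene end held 2.22% to 5.59% per library. In both groups replicate 1 had the largest share there, 4.89% and 5.59%, and what replicates of the same number share was not given in the sources used here.

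**Figure D4:**
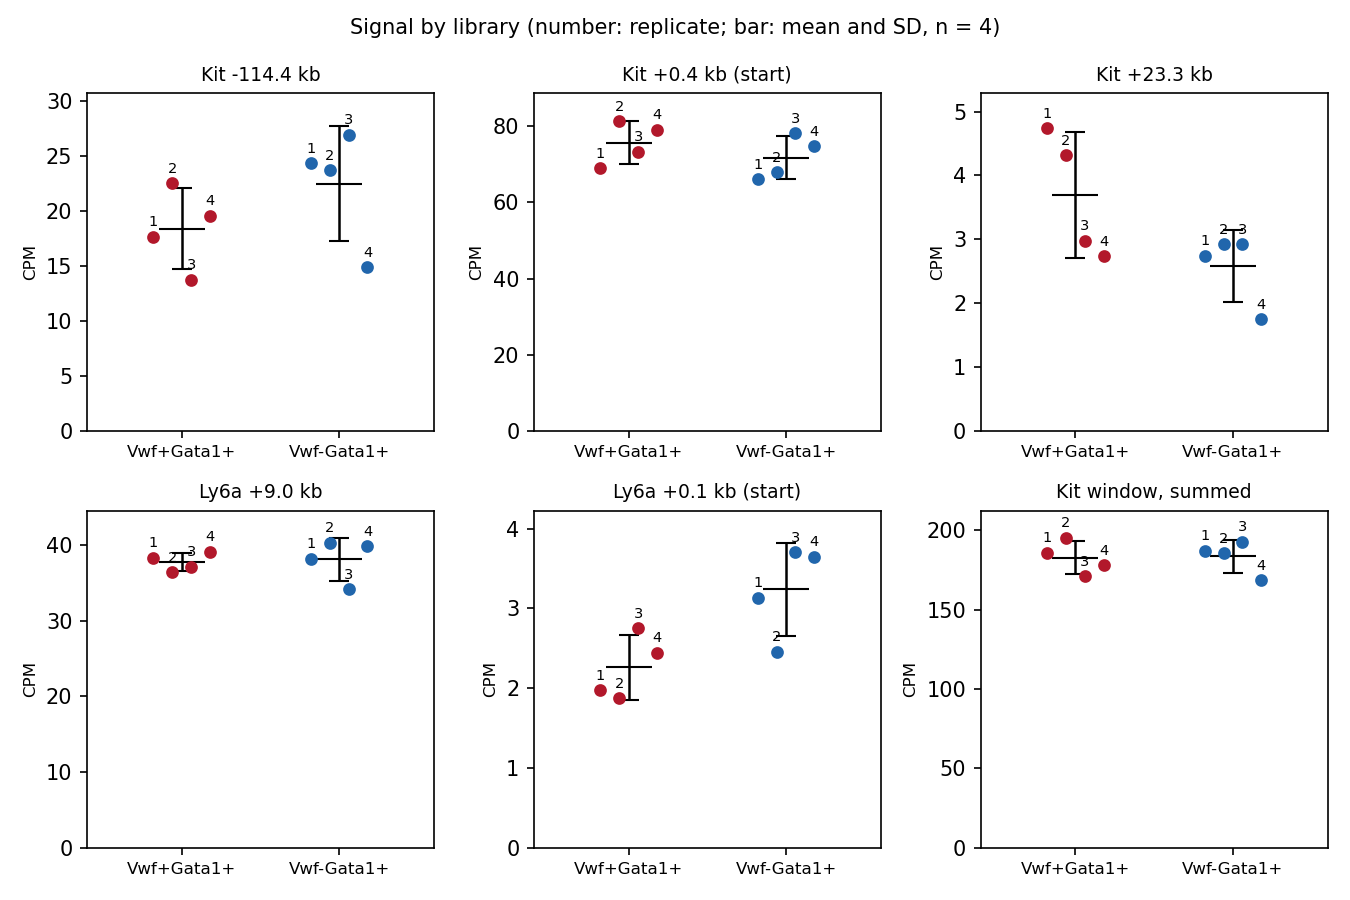
Signal in CPM in each library for 5 peaks named in the text and for the summed Kit window, with replicate numbers beside the points and the mean and SD (n = 4) as bars. At the Kit enhancer peak replicate 4 of Vwf-Gata1+ cells (14.9 CPM) sits apart from replicates 1 to 3 (23.7 to 26.9 CPM), and at the Kit start all 8 libraries lie between 66.1 and 81.3 CPM.

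Peaks elsewhere with the most similar pattern over the 8 libraries were looked up among 25189 tested peaks of at least 10 CPM. The pattern of the Kit start peak was most like that of peaks at chr2:25283908-25284859 (Pearson r = 0.98 over 8 libraries of log2 CPM) and chr2:154261761-154262930 (r = 0.97). For the Ly6a start peak they were chr13:112890466-112891795 and chr1:129764998-129765951 (r = 0.96 for each). With 8 points and so many candidates high values are easily reached. The Ly6a start peak itself, at 2.75 CPM and 10 to 25 counts per library, lies below the 10 CPM asked of the candidates. These peaks are known here only to come from the same libraries as the gate genes, and why the patterns are alike was not tested.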

How the data were processed

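Bulk ATAC-seq libraries of 2 sorted MPP2 groups, 4 each, were used. The authors deposited 1 table of raw counts per peak. Positions are in mm9, per the submitters' processing notes, which name Bowtie2, MACS2, Picard, SAMtools, FastQC and Trim Galore but no versions. The merging of peaks, the treatment of duplicates and any shift of read ends are not given in the sources used here. An unshifted read end would displace a cut by a few bases, less than a peak's width.

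All peaks were fitted together. Peaks passing edgeR's filterByExpr (minimum count 10, minimum total 15) were scaled by TMM and tested with edgeR's robust quasi-likelihood test, with Benjamini-Hochberg adjustment over 97040 peaks and a threshold of 0.05. The fit was also run on counts simulated from its own estimates. Such counts follow the model and share nothing between same-numbered libraries, so they cannot show how well the fit handles the real counts. Standard errors come from the fold change and the F statistic. CPM uses TMM-scaled totals of tested peaks. Window sums and levels were not tested. Named were all Ly6a peaks and, at Kit, the start peak, the peak nearest the known enhancer, the 3 highest per kb and the 3 with the lowest p. Further Kit peaks named for their level or position were chosen after their values were seen, as were the tiles. Motif letters were searched on both strands. The RefSeq promoters held Kit but not Ly6a, the other gene looked up. Members and rules were chosen with earlier results of these data known. Alternatives were other scalings, filters, DESeq2, limma-voom, a replicate block, autosomes only and each library left out. Software was edgeR 4.0.16, DESeq2 1.42.0 and limma 3.58.1 in R 4.3.3, with figures from matplotlib 3.10.9 in Python 3.11.15.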

Additional observations from a re-analysis of the deposited data

Results flagged for a closer look

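In 26 groups of 4 values (11 named peaks and 2 window sums in each group), 2 held a library far from the other 3, and chance gives about 1 in 20. At the Kit peak 23.3 kb after the start, replicate 4 of Vwf-Gata1+ cells had 1.75 CPM, where the others had 2.74 to 2.93 CPM. At the Ly6a peak 3.6 kb after the start, replicate 2 of Vwf+Gata1+ cells had 9.01 CPM, where the others had 6.65 to 6.90 CPM.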

How the results depend on the processing

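No tested peak of either window was called in any of the 17 alternative fits, in which the lowest adjusted p was 0.439, and DESeq2 gave no adjusted p for 6 of the 27. Of 170 values for the 10 named peaks, 164 kept their direction and 6 reversed, all in fits without 1 library and all near 0. In those fits the log2 fold change ran from -0.26 to 0.0070 for the Kit peak at 5.0 kb, from -0.0573 to 0.0114 for the Ly6a peak at 9.0 kb, and from -0.0492 to 0.25 for the Ly6a peak 1.0 kb upstream. At the Kit start it ran from 0.04 to 0.12, and was 0.03 with loess offsets. The reversed values of the Ly6a peak at 9.0 kb were 0.0039, 0.0114 and 0.0045, and those of the peak 1.0 kb upstream -0.023 and -0.049. Differences of the window sums stayed within the spread between libraries, from -0.05 to 0.02 (log2) at Kit and from -0.06 to -0.0027 at Ly6a without 1 library. Over all tested peaks the count called, 14, was 27 with total count scaling, 33 with loess offsets, 0 with limma-voom (7236 at an unadjusted p under 0.05) and 3 to 76 without 1 library. The cause was not tested. With the replicate block it was 511, and at the members still 0. Deviations of same-numbered libraries correlated at 0.309, 0.168, 0.0762 and 0.0109 for replicates 1 to 4. Libraries of different numbers were not compared in this way, so these values cannot decide whether the numbers pair samples. The main fit did not pair them. Depth limits the weak peaks most.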
